A study of Mus musculus with 8 samples.

Results

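The oxidative phosphorylation genes described here are those whose probes carry a symbol that starts with Nduf, Uqcr or Atp5, or with Cox followed by a digit, together with Sdha, Sdhb, Sdhc, Sdhd, Cyc1 and Cycs. They were picked by name alone. The array held 104 such probes of 24613, for 88 genes of 16448 with a symbol. By known role, 74 of the 88 encode structural subunits and 14 encode assembly factors. The subunit genes comprise 30 of complex I, 4 of complex II, 8 of complex III, 18 of complex IV and 14 of the ATP synthase. Of the assembly factors, 6 serve complex I and 8 serve complex IV. No probe was named Cycs, the gene of cytochrome c.

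In the inner mitochondrial membrane, complexes I and II pass electrons from NADH and succinate to ubiquinone, complex III passes them to cytochrome c, and complex IV passes them to oxygen. Complexes I, III and IV pump protons, and the ATP synthase, or complex V, uses the return flow of protons to make ATP. A few subunits of complexes I, III, IV and V are encoded by mitochondrial DNA and are not covered by the naming rule, so the values concern nuclear genes alone. Assembly factors are not part of the finished enzyme; they insert heme, copper or iron-sulfur groups or hold modules together while a complex is built. Astrocytes in the brain use glycolysis heavily but also respire.

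The study measured 4 arrays of NS5 cells, neural stem cells of a mouse line that divide as an attached culture with growth factors, and 4 of astrocytes made from that line. For the astrocyte group the growth factors were taken away and 5% fetal calf serum was given for 3 days, so loss of growth factors, serum and the change of cell type cannot be told apart. All 8 samples come from 1 cell line, and p-values therefore measure the spread between its replicate cultures, which the labels call biological replicates. Signals are given in scanner units after quantile normalization, as values for arrays 1 to 4 of a group, and fold changes are astrocyte minus NS5 on a log2(signal + 99.01) scale, which understates changes of dim genes. The deposited log2 values, which set a floor of 10 under low signals and add no offset, were used beside it. A gene was called when its adjusted p in the limma fit over 10377 genes was under 0.05, and the value after ± is the standard error of that fit.

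The labelled cell types were checked against markers. Of 10 astrocyte markers tested, 8 rose, with Gfap, the intermediate filament protein of astrocytes, at least 16.7-fold and Aqp4, their water channel, at least 36.6-fold higher, and neither above background on any NS5 array. Slc1a2, the glutamate transporter of mature astrocytes, was not above background on any array. Markers of neural stem cells did not fall as a group: 4 of 7 tested rose and 2 fell, namely Nes (-0.63) and Olig2 (at least 2.49-fold lower). Genes of dividing cells fell in 7 of 7 cases (median log2 difference -4.01), and their summed signal went from between 15944 and 17846 on the NS5 arrays to between 647 and 722 on the astrocyte arrays. Among 6 oligodendrocyte markers the summed signal was 212 to 328 in NS5 cells and 1073 to 1709 in astrocytes, with 3 of 3 tested members higher, while Mog and Sox10 were not above background on any array. The 4 microglial markers present were not above background on any array, the 2 fibroblast markers tested were not called, and of 4 neuronal markers tested 2 fell and 2 were not called. The part that cell division and these other cell markers have in the values below was not tested. In samples of whole cultures, fewer cells of a type and less RNA per cell cannot be told apart. Array correlations were 0.993 to 0.995 within NS5, 0.984 to 0.994 within astrocytes and 0.848 to 0.859 between them.

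Promoters of nuclear respiratory chain genes are known to carry sites for the factors NRF1, GABP and YY1, so the letters of those sites were looked up in 300-base windows around the annotated start (RefSeq, GRCm38.p6). The table held 71 of the 88 genes. The searched letters, on both strands, were GCGCA, any base, GCGC for NRF1, CCGGAAG for GABP and other ETS factors, and AAGATGGC for YY1; the end of the second and the start of the third share the letters AAG and may overlap. Some genes have more than 1 window, and a gene was counted when any of its windows held the letters. At least 1 of the motifs was present in 40 of 71 genes (56.3%), against 16.4% of 27025 genes in the table. The NRF1 letters were in 21.1% against 5.19%, the ETS letters in 28.2% against 9.93%, and the YY1 letters in 15.5% against 3.19%. Among genes called higher in astrocytes 11 of 21 held a motif, among those called lower 11 of 18, and among those not called 17 of 27. In the same order, the NRF1 letters were in 3, 6 and 5 genes (14.3%, 33.3% and 18.5%). The ETS letters were in 6, 6 and 8, and the YY1 letters in 3, 2 and 6. Differences between these shares were not tested. Base composition was not matched in these shares, and a match is a description of letters, not of binding. The 6 windows below belong to genes on which the later results turn: Ndufaf4 (chr4:24897833-24898132, plus strand), an assembly factor of complex I that fell, Cox10 (chr11:64079423-64079722, minus strand), one of complex IV that fell, Ndufa3 (chr7:3617123-3617422, plus strand), a subunit that rose, and the 3 genes for the same ATP synthase subunit, Atp5g1 (chr11:96075582-96075881), Atp5g2 (chr15:102670998-102671297) and Atp5g3 (chr2:73911277-73911576), all on the minus strand. They run 5′ to 3′ on the gene's strand, with the matched motif letters in capitals.
Ndufaf4: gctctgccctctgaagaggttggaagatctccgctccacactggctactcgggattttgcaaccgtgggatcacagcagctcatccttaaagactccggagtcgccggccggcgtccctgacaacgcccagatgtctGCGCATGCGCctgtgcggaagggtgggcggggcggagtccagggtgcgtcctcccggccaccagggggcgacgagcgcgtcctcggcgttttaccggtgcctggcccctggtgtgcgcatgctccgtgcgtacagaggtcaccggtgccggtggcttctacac
Cox10: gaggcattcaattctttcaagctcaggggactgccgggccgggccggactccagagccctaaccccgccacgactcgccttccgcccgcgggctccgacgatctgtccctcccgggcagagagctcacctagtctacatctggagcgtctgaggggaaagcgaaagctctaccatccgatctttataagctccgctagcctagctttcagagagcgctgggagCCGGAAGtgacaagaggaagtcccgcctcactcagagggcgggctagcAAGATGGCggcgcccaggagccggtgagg
Ndufa3: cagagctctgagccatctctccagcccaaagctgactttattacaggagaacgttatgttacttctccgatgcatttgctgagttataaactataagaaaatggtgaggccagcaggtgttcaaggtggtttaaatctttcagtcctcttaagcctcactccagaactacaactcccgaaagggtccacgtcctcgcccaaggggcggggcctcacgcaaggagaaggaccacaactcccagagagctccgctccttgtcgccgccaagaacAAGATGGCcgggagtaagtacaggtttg
Atp5g1: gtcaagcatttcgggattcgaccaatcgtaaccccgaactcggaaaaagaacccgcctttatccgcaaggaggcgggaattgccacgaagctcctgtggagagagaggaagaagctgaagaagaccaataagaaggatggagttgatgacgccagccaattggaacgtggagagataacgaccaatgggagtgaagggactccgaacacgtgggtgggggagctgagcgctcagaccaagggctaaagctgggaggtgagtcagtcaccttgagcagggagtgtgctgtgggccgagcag
Atp5g2: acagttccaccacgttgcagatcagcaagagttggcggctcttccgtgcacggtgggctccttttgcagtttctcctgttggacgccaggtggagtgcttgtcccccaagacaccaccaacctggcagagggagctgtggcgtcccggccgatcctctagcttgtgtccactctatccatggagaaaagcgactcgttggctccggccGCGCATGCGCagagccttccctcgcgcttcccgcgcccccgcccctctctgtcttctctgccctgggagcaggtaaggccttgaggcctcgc
Atp5g3: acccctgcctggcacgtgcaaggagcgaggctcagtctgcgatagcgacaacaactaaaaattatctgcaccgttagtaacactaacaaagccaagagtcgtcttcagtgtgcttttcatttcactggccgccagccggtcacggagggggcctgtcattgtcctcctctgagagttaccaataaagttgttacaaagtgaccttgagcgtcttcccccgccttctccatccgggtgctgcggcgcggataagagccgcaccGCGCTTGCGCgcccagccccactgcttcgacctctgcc
The Ndufaf4, Atp5g2 and Atp5g3 windows each hold the NRF1 letters once, Cox10 holds the ETS and YY1 letters, and Ndufa3 holds the YY1 letters. The Atp5g1 window holds none of the 3 motifs. The NRF1 letters thus occur in Atp5g2 and Atp5g3 alike, whose changes are set side by side further on.

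Of the 88 genes, 78 had a probe that passed the filter on dim probes and were tested. In astrocytes 25 were higher, 20 were lower and 33 were not called. Over all 10377 genes, 29.2% were called higher and 30% lower, so the shares of the family (32.1% and 25.6%) lay near the background. On this scale 1 of 78, Ndufaf4, was called and changed at least 2-fold, against 18.5% of all genes; in the deposited log2 values 4 of 78 did, with Cox7a1, Cox8b and Ndufb2 added, against 28.0%. The log2 fold changes had an SD of 0.42 across the family and 0.94 across all genes. The groups did not overlap for 37 of the 78, with all astrocyte arrays above in 23 and all NS5 arrays above in 14; 54.9% of all genes separate in this way. Of 65 subunit genes tested, 22 were higher and 13 lower with a median of 0.08, but with each array centred on its median 12 were higher and 19 lower with a median of -0.06. Of 13 assembly factors tested, 3 were higher and 7 lower with a median of -0.27, and with that centring 2 were higher and 7 lower. The median of all genes was -0.02. Without Astrocyte 1 the assembly factor median was -0.16, and the subunit median was 0.02 without NS5 3, 0.049 without Astrocyte 4 and 0.13 without Astrocyte 1. Of the 45 called genes, 37 stayed called without any one array and 8 did not, namely Ndufa5, Ndufb5, Ndufs4, Sdhd, Cox14, Cox17, Ndufaf3 and Ndufaf5. All of these but Cox17 were also not called in the deposited log2 values (adjusted p = 0.0506 to 0.0953).

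**Figure D1:**
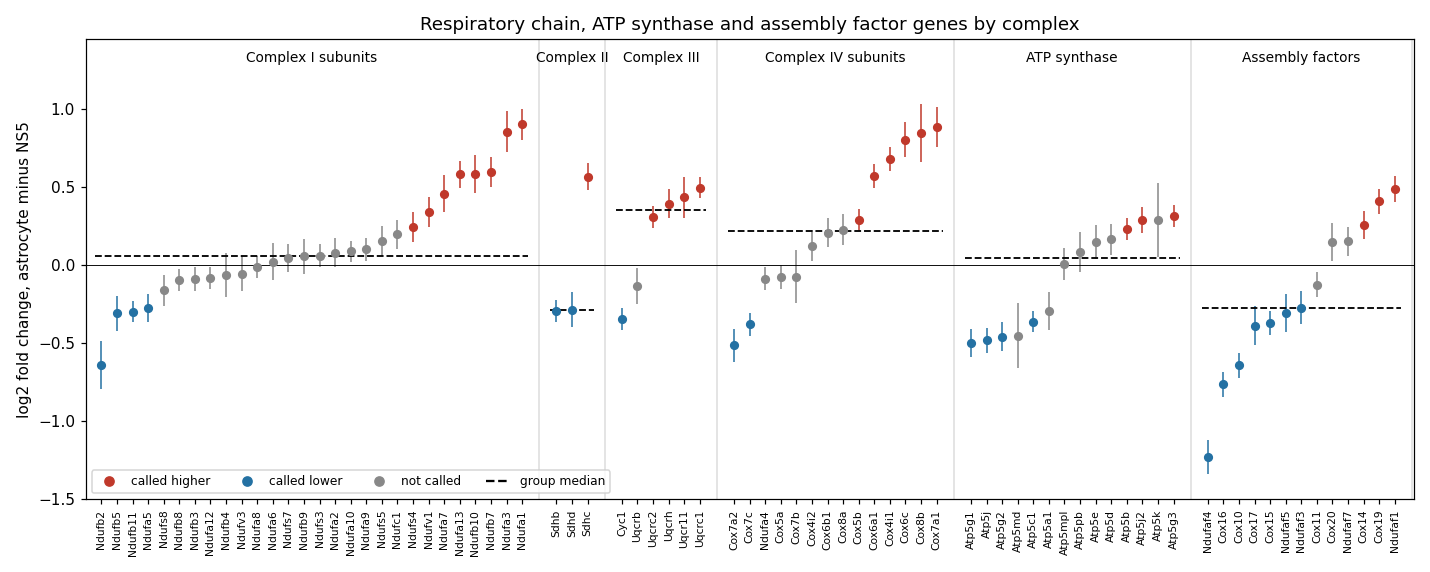
Log2 fold change (astrocyte minus NS5) of the 78 tested genes, grouped by complex, with subunits apart from assembly factors. Points are limma estimates with standard errors, coloured by call, and dashed lines are group medians, such as 0.35 for complex III and -0.27 for the 13 assembly factors; with each array centred on its median the medians of complexes I and V lay below 0 (-0.07 and -0.20).

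The 10 genes that were not tested are accounted for as follows. The probes of Ndufs1, the largest core subunit of complex I, Sdha, the flavoprotein of complex II, Uqcrq, Cox8c and Ndufaf6 were not above background on any array. Uqcrfs1, the Rieske iron-sulfur protein of complex III, was above it on 1 astrocyte array, Cox6b2, a testis isoform, on 1 NS5 array, and Cox7b2 on 1 array of each group. Ndufab1, the mitochondrial acyl carrier protein, was above background on 3 NS5 arrays and on no astrocyte array, so that astrocytes were lower by at least 1.16-fold. Cox6a2, the heart and muscle isoform of subunit 6a, was above it on 2 NS5 arrays and none of the astrocyte arrays, with a bound of 1.06-fold lower in astrocytes. The bounds of Ndufab1 and Cox6a2 are small, rest on signals near background and carry no test. For Sdha, Ndufs1 and Uqcrfs1, which every respiring cell needs, such signals describe these probes and give no level of the genes. Second probes of Ndufc1, Ndufaf7, Cox16, Atp5j and Atp5md were not above background on any array either.

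Complex I takes electrons from NADH and is the largest enzyme of the chain. Of its 28 subunit genes tested, 8 were higher (28.6%, against 29.2% of all genes) and 4 were lower (14.3%, against 30%). A further 16 were not called, and the median was 0.058. With each array centred on its median 5 were higher and 6 lower. Ndufa1, an accessory subunit of the membrane arm, read 7794, 7184, 5658 and 7378 on the NS5 arrays and 12275, 13523, 13028 and 13523 on the astrocyte arrays. All astrocyte arrays lay above all NS5 arrays, of which NS5 3 was the lowest. The log2 fold change of Ndufa1 was 0.90 ± 0.10 (adjusted p = 4.39e-06), or 1.87-fold on this scale. Ndufa3, another accessory subunit, read 4865, 4299, 3078 and 4937 in NS5 cells and 7432, 8497, 7015 and 8031 in astrocytes. The groups did not overlap, NS5 3 was again lowest, and the log2 fold change was 0.86 ± 0.13 (adjusted p = 0.000108). Ndufb7 rose from 243, 249, 173 and 269 to 435, 405, 387 and 376, again with no overlap, by 0.60 ± 0.10 (adjusted p = 0.000144). Ndufb10 (0.58), Ndufa13 (0.58), also known as the cell death regulator GRIM-19, and Ndufa7 (0.46) rose as well without overlap. Of the 4 core subunits tested, Ndufv1, which binds NADH, rose by 0.34 ± 0.094 (adjusted p = 0.00716), while Ndufs3 (0.060), Ndufs7 (0.047) and Ndufs8 (-0.16) were not called. The calls of Ndufa13 (0.19, adjusted p = 0.141) and Ndufv1 (0.17, adjusted p = 0.312) were lost with each array centred on its median, and Ndufs8 was then called lower (-0.29, adjusted p = 0.0269).

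In the opposite direction, 4 accessory subunits fell. Ndufb2 read 177, 141, 53.9 and 159 on the NS5 arrays and 36.7, 54.2, 38.3 and 56.7 on the astrocyte arrays. The groups overlapped through NS5 3 alone, which lay within the astrocyte range. Its log2 fold change was -0.64 ± 0.15 (adjusted p = 0.00311), and its size rests on how dim signals are treated, at -0.51 with a larger offset and -1.41 in the deposited log2 values (adjusted p = 0.00831 in the latter). Ndufb11, encoded on the X chromosome like Ndufa1, went from 157, 163, 146 and 153 to 103, 101, 107 and 119. These groups did not overlap, and the log2 fold change was -0.30 ± 0.068 (adjusted p = 0.00202), or -0.53 in the deposited log2 values. Ndufb5 (-0.31 ± 0.11, adjusted p = 0.0283) and Ndufa5 (-0.28 ± 0.091, adjusted p = 0.0199) fell with overlapping groups. Leaving out any one of NS5 1, NS5 4, Astrocyte 1 and Astrocyte 3 ended the Ndufb5 call (adjusted p = 0.0621 to 0.0908), and leaving out NS5 2 or NS5 4 ended that of Ndufa5 (0.0577 to 0.0672). A second Ndufa5 probe gave -0.15, and the mean of both probes was not called (-0.21, adjusted p = 0.0995), whereas with each array centred on its median Ndufa5 was at -0.42. Ndufs4, an accessory subunit of the NADH module, had 3 probes at 0.14, 0.24 and 0.25. It was called at adjusted p = 0.041, a call that ended without any one of NS5 3, NS5 4, Astrocyte 1, Astrocyte 2 and Astrocyte 4 (0.0552 to 0.124) and with each array centred on its median (0.061, adjusted p = 0.731). For 2 genes the probes differed in sign: Ndufs3 read 0.060 by the tested probe and -0.07 by the other, and Ndufv3 -0.055 and 0.36.

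**Figure D2:**
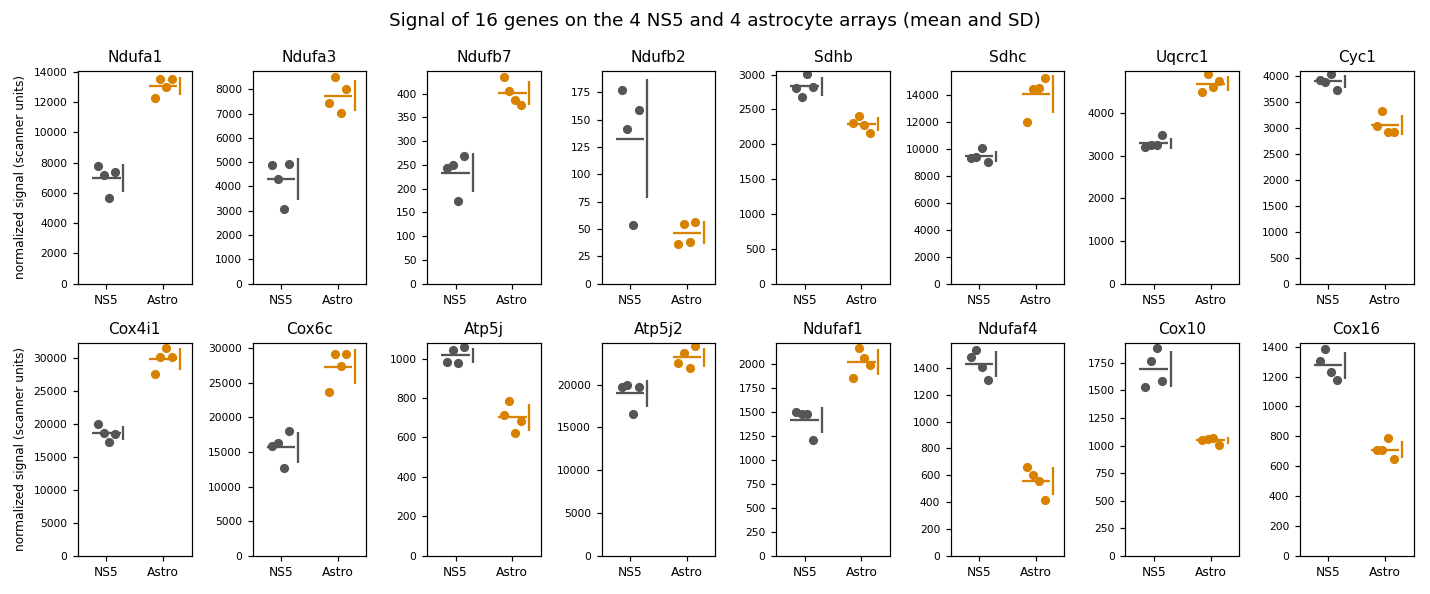
Normalized signal in scanner units of 16 genes on each of the 4 NS5 (grey) and 4 astrocyte (orange) arrays, each panel with its own scale from 0. Horizontal lines are group means and vertical lines 1 SD; the groups are apart in all panels but that of Ndufb2, where NS5 3 (53.9) lies among the astrocyte arrays (36.7 to 56.7).

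Complex II, succinate dehydrogenase, is the only complex of the chain that is also an enzyme of the citric acid cycle and is wholly encoded in the nucleus. Its 3 tested genes did not move together. Sdhc, a membrane anchor, read 9310.0, 9376, 10013 and 8981 in NS5 cells and 11977, 14429, 14526 and 15209.9 in astrocytes. All astrocyte arrays were higher, and the log2 fold change was 0.57 ± 0.086 (adjusted p = 8.57e-05), or 0.35 with each array centred on its median (adjusted p = 0.0177). Sdhb, the iron-sulfur subunit, read 2814, 2675, 3013 and 2819 in NS5 cells and 2309, 2406, 2269.5 and 2164 in astrocytes. All astrocyte arrays were lower, with a log2 fold change of -0.30 ± 0.071 (adjusted p = 0.0029). Sdhd, the second membrane anchor, read 1945, 1895, 1611 and 1723 and then 1157, 1558, 1389 and 1763. Its groups overlapped through Astrocyte 4, and its call (-0.28 ± 0.11, adjusted p = 0.0487) was lost without any one of NS5 1, NS5 2, NS5 4, Astrocyte 1, Astrocyte 2 and Astrocyte 3 (0.0548 to 0.125), with -0.18 without Astrocyte 1. Further probes of Sdhb and Sdhc were not above background on any array.

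Complex III hands electrons to cytochrome c. Of 6 genes tested, 4 rose, Cyc1 fell and Uqcrb (-0.13 ± 0.11, adjusted p = 0.356) was not called, with a median of 0.35. The shares called higher and lower were 66.7% and 16.7%, against 29.2% and 30% of all genes. Uqcrc1, a core protein on the matrix side, read 3202, 3253, 3249.7 and 3485 in NS5 cells and 4495, 4912, 4619 and 4751 in astrocytes. The groups were well apart, with a log2 fold change of 0.50 ± 0.069 (adjusted p = 3.72e-05). Its partner Uqcrc2 went from 3495, 3874, 3903 and 3953 to 4828, 4769, 4875 and 4489.5, without overlap, by 0.31 ± 0.072 (adjusted p = 0.00222). Uqcrh, the hinge protein, rose by 0.39 ± 0.093 (adjusted p = 0.00265) and the small subunit Uqcr11 by 0.44 ± 0.13 (adjusted p = 0.0121), the latter with overlapping groups. Cyc1, the heme-bearing cytochrome c1, went the other way, from 3912, 3879.9, 4033 and 3722 to 3029, 3323, 2912 and 2912. All its astrocyte arrays lay below all NS5 arrays (-0.34 ± 0.072, adjusted p = 0.00112). The direction of this complex as a group rests on the scaling: with each array centred on its median Uqcrc1 alone was called higher, and Cyc1 and Uqcrb were called lower (-0.26, adjusted p = 0.027). With that centring Uqcrc2 read 0.18 (adjusted p = 0.225), Uqcrh 0.090 (0.478) and Uqcr11 0.28 (0.0776).

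Complex IV, cytochrome c oxidase, reduces oxygen. Of 14 nuclear subunit genes tested, 6 rose (42.9%, against 29.2% of all genes) and 2 fell (14.3%, against 30%). A further 6 were not called, and the median was 0.22. With each array centred on its median 5 were higher and 3 lower. Cox4i1, the common form of subunit 4, read 19960.1, 18625, 17344 and 18434 in NS5 cells and 27576, 30129, 31606 and 30129 in astrocytes. The groups did not overlap, and the log2 fold change was 0.68 ± 0.075 (adjusted p = 5.19e-06). Cox6c read 15803, 16247, 12627 and 18089 and 23686, 29118, 27387 and 29118, also without overlap, with a log2 fold change of 0.80 ± 0.11 (adjusted p = 3.82e-05). Both probes of Cox6a1, the liver-type form of subunit 6a, gave 0.57 (adjusted p = 3.61e-05 for the tested one). Cox5b rose by 0.29 ± 0.070 (adjusted p = 0.00304), a call that was lost with each array centred on its median (0.054, adjusted p = 0.679). With that centring Cox4i1 (0.35), Cox6c (0.41) and Cox6a1 (0.36) were still called, with smaller changes. Cox7a2 and Cox7c fell. Cox7c, a small subunit, went from 18309, 17821, 16247 and 17270.2 to 14089, 13674, 13193 and 12509. The arrays did not overlap, and the log2 fold change was -0.38 ± 0.073 (adjusted p = 0.000598), or -0.63 with each array centred on its median. Ndufa4, once counted in complex I and now placed in complex IV, differed by -0.088 ± 0.073 (adjusted p = 0.337), and was called lower with each array centred on its median (-0.30, adjusted p = 0.0228).

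Several subunits of complex IV exist as isoforms from separate genes, a common one and one typical of heart and muscle or, for Cox4i2, of lung. Cox7a1, the heart and muscle form of subunit 7a, read 29.1, 17.4, 8.3 and 48.2 in NS5 cells, above background on 1 of the 4 arrays, and 85, 121, 179 and 145 in astrocytes, above it on all. The astrocyte arrays were all higher. The fitted log2 fold change was 0.89 ± 0.13 (adjusted p = 6.19e-05), but its size is set by how the dim NS5 signals are treated, at 0.69 with a larger offset and 2.52 in the deposited log2 values (adjusted p = 0.00109 in the latter). Cox7a2, the liver-type form, read 1567, 1514, 1248 and 1532 in NS5 cells and 881, 1077, 882 and 1156 in astrocytes. The groups did not overlap in the opposite direction (-0.51 ± 0.10, adjusted p = 0.000831). Cox8b, the heart and muscle form of subunit 8, read 116, 105, 90.1 and 120.0 and then 169, 267, 491 and 227. It was higher on each astrocyte array, most of all on Astrocyte 3, by 0.84 ± 0.19 (adjusted p = 0.00161), or 1.31 in the deposited log2 values (adjusted p = 0.00361). Cox8a, the liver-type form, differed by 0.23 ± 0.10 (adjusted p = 0.073), and passed the threshold without NS5 4 (0.0405) or Astrocyte 1 (0.0394). Cox4i2 read 84.1, 56.7, 104 and 78 in NS5 cells and 84.1, 83.8, 129.7 and 89.7 in astrocytes. Its groups overlapped (0.12 ± 0.10, adjusted p = 0.325).

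Whether the 2 isoforms of a subunit changed unequally was tested by their difference within each array, in 3 pairs. The log2 change of Cox7a2 minus that of Cox7a1 was -1.40. With Cox7a1 dim in NS5 cells this difference has a direction but no firm size: it was -1.18 with a larger offset and -3.08 in the deposited log2 values. Array SDs of the difference were 0.14 in NS5 cells and 0.29 in astrocytes. Cox4i2 minus Cox4i1 gave -0.56, with SDs of 0.20 and 0.11. Cox8b minus Cox8a gave 0.62, with SDs of 0.058 and 0.52, and 1.09 in the deposited log2 values. In each pair the 4 arrays of one group lay beyond the 4 of the other, and the two-sided exact permutation p was 0.0286 before and after adjustment over the 3 pairs, the smallest that 70 splits allow. The Cox8 pair missed the threshold without any one of the NS5 arrays (adjusted p = 0.0857 each time, differences 0.60 to 0.64) and was 0.38 without Astrocyte 3. The Cox4 pair missed it with each array centred on its median (-0.24, adjusted p = 0.2). Thus the rise of a heart and muscle isoform relative to the liver-type one was measured for subunits 7a and 8. Cox7a1 passed the filter on dim probes through its astrocyte arrays (mean signal 133, against 25.7 in NS5 cells). Its pair could therefore be tested only because it was high there. For subunit 6a the heart and muscle gene, Cox6a2, was at background in astrocytes and failed the filter. Without the filter, Cox6a2 minus Cox6a1 was -1.15, the opposite direction (exact permutation, adjusted p = 0.0357 over 5 pairs).

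**Figure D3:**
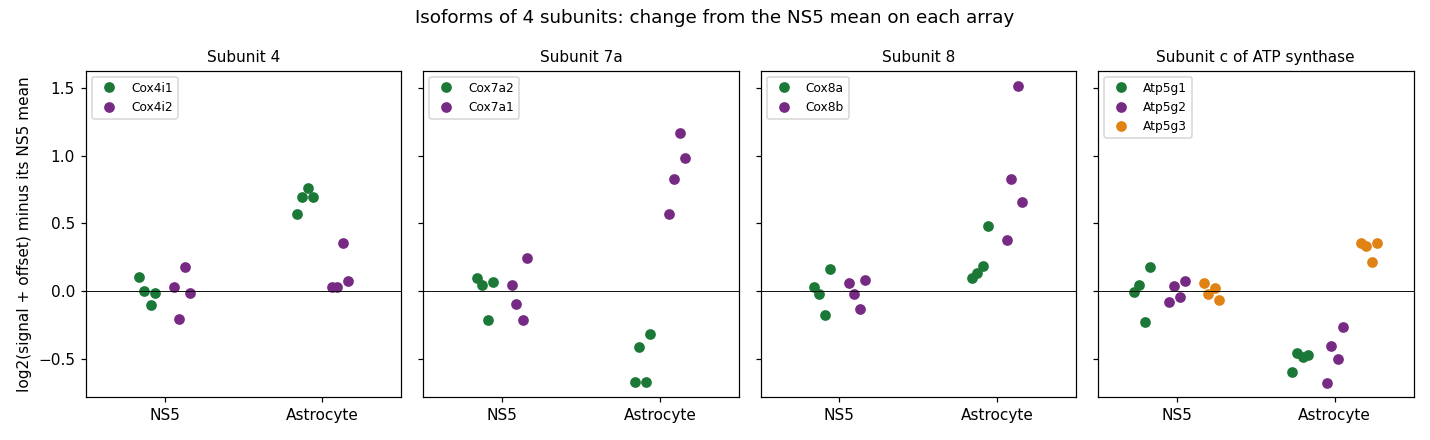
Change of isoform genes on each array, as log2(signal + 99.01) minus the gene's mean over the NS5 arrays, for subunits 4, 7a and 8 of complex IV and subunit c of the ATP synthase. Each point is 1 array; Cox7a1 and Cox7a2 part in opposite directions (0.89, or 2.52 in the deposited log2 values, and -0.51), and Atp5g3 (0.31) parts from Atp5g1 and Atp5g2 (-0.50 and -0.46), although with each array centred on its median Atp5g3 is at -0.16.

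The ATP synthase consists of a catalytic F1 head, a proton-conducting Fo part with a ring of subunit c, and a stalk. Of 14 genes tested, 3 were higher (21.4%, against 29.2% of all genes) and 4 were lower (28.6%, against 30%). A further 7 were not called, and the median was 0.047. With each array centred on its median 6 were lower and 8 not called. Subunit c is made from 3 genes whose mature proteins are the same and whose import sequences differ. Atp5g1 read 5298, 5489, 4529 and 6028 in NS5 cells and 3476, 3851, 3779 and 3812 in astrocytes. Atp5g2 read 3485, 3796, 3583 and 3903 in NS5 cells and 2279, 2767, 2587 and 3054 in astrocytes. Both were lower on each astrocyte array, with log2 fold changes of -0.50 ± 0.090 (adjusted p = 0.000351) and -0.46 ± 0.091 (adjusted p = 0.00076). Atp5g3 read 27576, 26031, 26864 and 25336 in NS5 cells and 33832, 33325, 30744 and 33832 in astrocytes. It was higher on each astrocyte array (0.31 ± 0.070, adjusted p = 0.0017), but with each array centred on its median it read -0.16 (adjusted p = 0.193). The difference within arrays did not depend on that choice in sign: Atp5g3 minus Atp5g1 changed by 0.81, and over the alternatives by 0.48 to 0.90, and Atp5g3 minus Atp5g2 by 0.77 and by 0.42 to 0.82. These differences were picked after the values were seen and were not tested.

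Of the F1 head, Atp5c1, the central shaft, fell by 0.36 ± 0.069 (adjusted p = 0.000524), going from 9512, 10301, 9876 and 10455 to 7645, 8158, 7645 and 7692. No astrocyte array reached the NS5 range, and with each array centred on its median the change was -0.54. Atp5b, the catalytic beta subunit, read 25336, 27187, 29118 and 27187 in NS5 cells and 32636, 30920.5, 32053 and 32053 in astrocytes. It was higher on each astrocyte array by 0.23 ± 0.070 (adjusted p = 0.0127), and read -0.22 with each array centred on its median (adjusted p = 0.0607). Its partner Atp5a1 differed by -0.29 ± 0.12 (adjusted p = 0.055) and was called lower without Astrocyte 2 (-0.41, adjusted p = 0.00436) and with each array centred on its median (-0.43, adjusted p = 0.0187). Atp5j, coupling factor 6 of the stalk, fell from 985, 1043, 980.1 and 1057 to 713, 786, 623 and 683. These groups did not overlap (-0.48 ± 0.079, adjusted p = 0.000157). Atp5j2, subunit f, rose by 0.29 ± 0.081 (adjusted p = 0.00797) and read -0.060 (adjusted p = 0.675) with each array centred on its median. Atp5k, subunit e (0.29 ± 0.24, adjusted p = 0.331), and Atp5md, also known as DAPIT (-0.45 ± 0.21, adjusted p = 0.0857), had wide spreads; Atp5k was at 0.013 without NS5 3, and Atp5md was called lower without NS5 3 (-0.62, adjusted p = 0.0186) and with each array centred on its median (-0.52, adjusted p = 0.0237).

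Among the assembly factors, Ndufaf4 had the lowest log2 fold change of the 78 genes on the main scale, while in the deposited log2 values Ndufb2 was slightly lower (-1.41 against -1.37). Ndufaf4, which helps to build the quinone-binding module of complex I, read 1480.1, 1529.7, 1409 and 1308 in NS5 cells and 658, 605, 558 and 417 in astrocytes. No astrocyte array came near the NS5 range, and the log2 fold change was -1.23 ± 0.11 (adjusted p = 7.96e-07), or 2.34-fold lower on this scale. Its partner in the same step, Ndufaf3, read 2686, 2618, 2406 and 2596 and 1653, 2235, 2334 and 2312. These groups were apart, but Astrocyte 1 lay far below the others. Its call (-0.27 ± 0.10, adjusted p = 0.0401) was lost without any one of NS5 1, NS5 2, NS5 4 and Astrocyte 1 (0.0786 to 0.094), and the fold change was -0.16 without Astrocyte 1. Ndufaf5, which modifies the core subunit Ndufs7, gave -0.31 by both probes (adjusted p = 0.0479) and was lost without any one of NS5 1, NS5 2, NS5 3, Astrocyte 1 and Astrocyte 3 (0.0546 to 0.15). Ndufaf1, a factor for the membrane arm, went the other way, from 1499, 1477, 1479 and 1212 to 1853, 2174, 2065 and 1998. The groups did not overlap (0.49 ± 0.086, adjusted p = 0.000297). Ndufaf7, a methyltransferase, was not called (0.15 ± 0.10, adjusted p = 0.201).

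For complex IV the heme and copper routes can be followed in part, through the genes under the naming rule. Cox10 makes heme O, the precursor of the heme A that complex IV alone carries, and read 1530.3, 1765, 1886 and 1589.6 in NS5 cells and 1054, 1059.9, 1066 and 1005 in astrocytes. All astrocyte arrays were lower (-0.64 ± 0.079, adjusted p = 1.42e-05). Cox15, which turns heme O into heme A, read 785, 886, 941 and 933 and then 661, 616, 696 and 672. It was lower on all astrocyte arrays as well (-0.37 ± 0.077, adjusted p = 0.00105). Of the copper route, the chaperone Cox17 fell by 0.39 ± 0.13 (adjusted p = 0.0178), a call lost without NS5 1 or NS5 4 (0.0506 and 0.0614). Cox19 rose by 0.41 ± 0.078 (adjusted p = 0.000584), and Cox11, which inserts copper, was not called (-0.13 ± 0.081, adjusted p = 0.207). Cox16, which acts on the second mitochondrially encoded subunit, went from 1307, 1388, 1233 and 1177 to 706, 707, 787 and 647. The groups were far apart (-0.76 ± 0.080, adjusted p = 3.20e-06). Cox20, which acts on the same subunit, was not called (0.15 ± 0.12, adjusted p = 0.336) but passed the threshold without Astrocyte 1 (0.27, adjusted p = 0.0263). Cox14, an early factor, rose by 0.26 ± 0.090 (adjusted p = 0.0249), a call lost without any one of NS5 3, Astrocyte 2, Astrocyte 3 and Astrocyte 4 (0.0523 to 0.0784) and with each array centred on its median (0.090, adjusted p = 0.463). Thus both heme A enzymes fell. Of the copper factors named here, Cox19 rose, Cox17 fell with a call that rested on single arrays, and Cox11 was not called.

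By array, the median of the 13 assembly factors relative to their NS5 mean lay between -0.08 and 0.05 on the NS5 arrays and between -0.37 and -0.13 on the astrocyte arrays, with no overlap. That of the 65 subunits lay between -0.14 and 0.06 and between -0.02 and 0.18, with overlap. For complex III the ranges were -0.10 to 0.08 and 0.15 to 0.39, and for complex IV -0.15 to 0.06 and 0.15 to 0.27, both without overlap under quantile normalization. The difference between the median of these 13 assembly factors and the subunit median was -0.36. Over the alternatives it was -0.37 to -0.25, with each array centred on its median included (-0.31). It concerns the genes picked by name. For 24 tested assembly factors outside the naming rule the median was -0.09, and for all genes -0.02. Members are not replicates, so these medians carry no test. NS5 3 was the lowest NS5 array for 46 of 65 subunits (70.8%, against 27.0% of all genes), and Astrocyte 1 the lowest astrocyte array for 41 of 65 (63.1%, against 32.1%). Without both arrays, a choice made after seeing the data, 25 genes of the family were higher and 17 lower, and the medians were 0.10 for subunits and -0.19 for assembly factors.

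**Figure D4:**
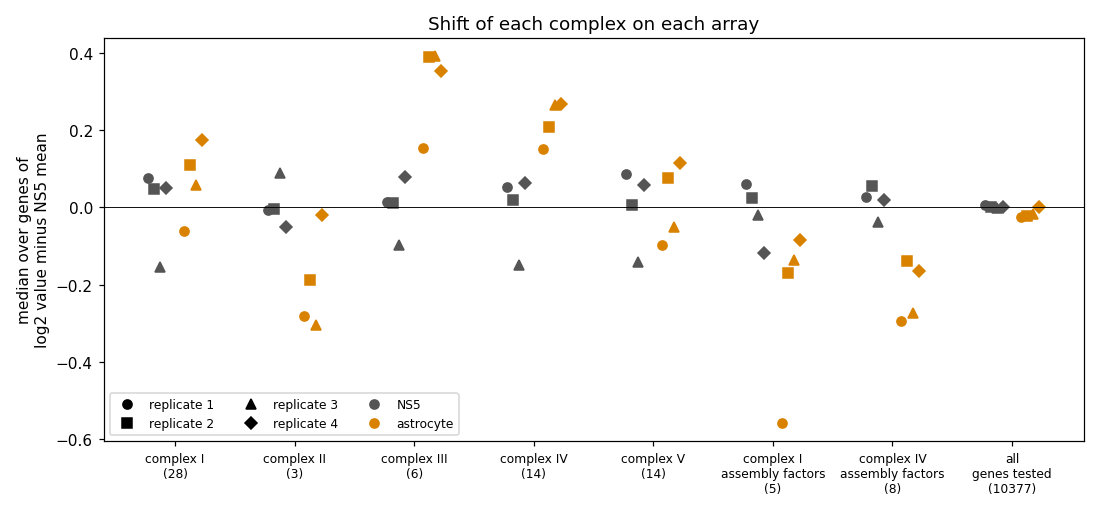
Median over genes of the log2 value minus the gene's NS5 mean, for each of the 8 arrays (symbols mark the replicate number, by which arrays were not paired here), by complex and class, with the number of genes in brackets. Complexes III and IV and the assembly factors of complex IV separate the groups, and NS5 3 and Astrocyte 1 sit low within complexes I, III, IV and V; quantile-normalized values are shown, and with each array centred on its median the median of complex III was 0.13 and that of complex IV 0.047.

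Related genes outside the naming rule were listed by role. Of 24 other assembly factors tested, 4 rose and 8 fell, with a median of -0.09. Over all genes, 29.2% were called higher and 30% lower, so the falls in this list were near the background. Those that fell included Cmc2 (-1.08 ± 0.13), a factor for complex IV, Sdhaf3 (-0.73 ± 0.084), which serves the iron-sulfur subunit of complex II, Oxa1l (-0.63 ± 0.081), which inserts proteins into the inner membrane, and Bcs1l (-0.56 ± 0.083), which places the Rieske protein in complex III. Those that rose included Sdhaf2 (0.45 ± 0.077), which attaches flavin to Sdha, and Surf1 (0.33 ± 0.082), a complex IV factor, whose call was lost with each array centred on its median (adjusted p = 0.081); 2 then rose and 8 fell. Of 7 other genes that feed electrons to the ubiquinone pool or act beside it, 4 rose and 2 fell (4 and 1 with each array centred on its median), and their median log2 fold change was 0.61. Etfdh (0.93 ± 0.10) and Etfa (0.73 ± 0.073), which carry electrons from fatty acid oxidation, and Gpd2 (0.61 ± 0.10), of the glycerol phosphate shuttle, rose, as did Aifm2, a ubiquinone reductase, from a mean signal of 135 ± 14.1 to 835 ± 33.3 (SD, 4 arrays each; adjusted p = 2.00e-10). The mean of all Aifm2 probes gave 0.97 (adjusted p = 4.04e-07). Dhodh, the pyrimidine synthesis enzyme that also reduces ubiquinone, fell by 1.25 ± 0.089 (adjusted p = 9.32e-08).

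Of 7 carriers and porins tested, 2 rose, 2 fell and 3 were not called, and with each array centred on its median 2 rose and 4 fell. The background for this list and for the regulators below was 29.2% of all genes called higher and 30% lower. The adenine nucleotide carriers moved in opposite directions, Slc25a4, the heart and muscle form, with log2 fold changes of 0.44 ± 0.14 (adjusted p = 0.0202) and, for Slc25a5, -0.27 ± 0.093 (adjusted p = 0.0261); in the deposited log2 values neither was called (adjusted p = 0.0506 and 0.0629). Slc25a4 also lost its call without any one of NS5 2, NS5 3, Astrocyte 2 and Astrocyte 4 (0.0523 to 0.0704), and Slc25a5 without any one of NS5 3, Astrocyte 1 and Astrocyte 2 (0.0646 to 0.09), while with each array centred on its median Slc25a5 was at -0.56. Vdac2, a porin of the outer membrane, fell by 0.83 ± 0.076 (adjusted p = 9.06e-07). Ucp2, an uncoupling protein homologue, rose by 0.52 ± 0.13 (adjusted p = 0.00451). Among 10 regulators of mitochondrial gene expression tested, 1 rose and 5 fell, counts that did not change with each array centred on its median, and their median log2 fold change was -0.35. Ppargc1a, the coactivator PGC-1 alpha, rose by 1.12 ± 0.079 (adjusted p = 8.55e-08). Tfam, which packs and transcribes mitochondrial DNA, fell by 0.84 ± 0.079 (adjusted p = 1.08e-06), Nrf1, whose letters were searched above, fell by 0.49 ± 0.078 (adjusted p = 0.000129), Gabpb1, a subunit of GABP, fell by 0.68 ± 0.084, Polg, the mitochondrial DNA polymerase, fell by 0.60 ± 0.10, and Tfb1m fell by 0.48 ± 0.10. In the deposited log2 values Gabpb1 (-1.20) and Polg (-1.03) were lower still, and the rise of Ucp2 was over 2-fold. Gabpa was not called (-0.11 ± 0.11, adjusted p = 0.456). The signal of Yy1 was not above background on any array, which describes its probe and gives no level of the gene.

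**Figure D5:**
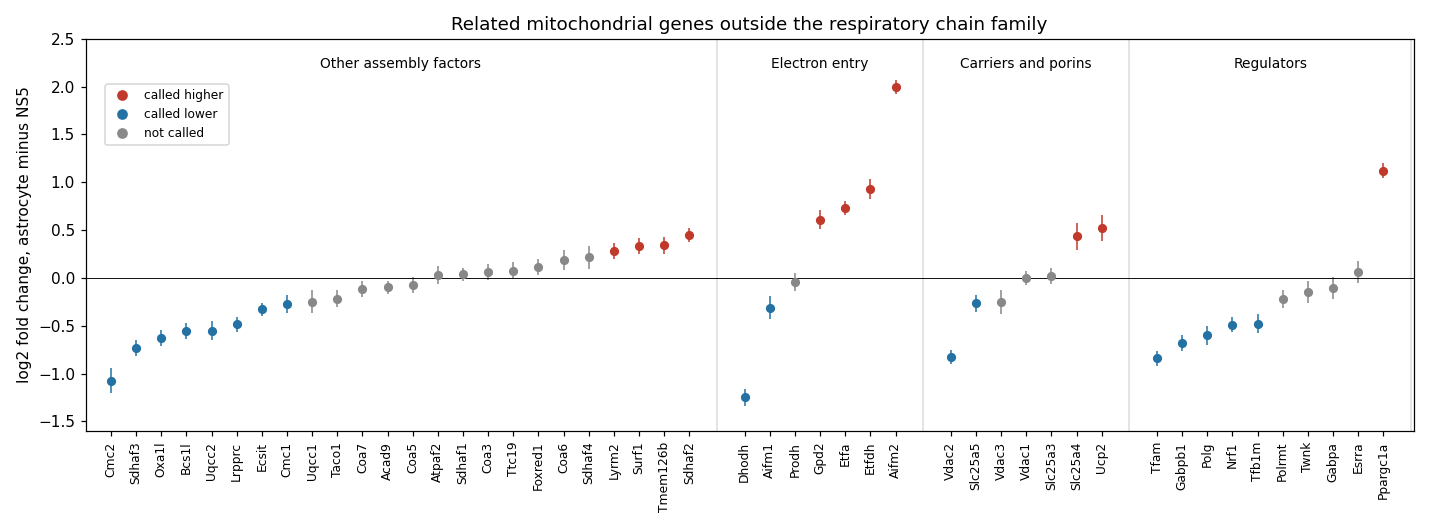
Log2 fold change (astrocyte minus NS5) with standard error of the tested genes of the 4 related lists, coloured by call. Aifm2 (at the top of its list) and Ppargc1a (1.12) rose, and Dhodh (-1.25) and Cmc2 (-1.08) fell.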

How the data were processed

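The deposited table holds linear probe intensities of 8 Illumina MouseRef-8 arrays, 1 per sample; negative values show that the authors had subtracted a background, and their software is not given in the sources used here. The deposited value table holds log2 values, recovered within 4.99e-09 from the intensities by a floor of 10, log2 and quantile normalization; it served as an alternative. RNA was amplified and labelled with biotin, per the labels' protocols. No slide or scan date is given in the sources used here.

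Of 24613 probes, 20984 had 1 symbol in the platform annotation, 1 had several, 3628 were unlisted, and 686 of these were named by accession (RefSeq, GRCm38.p6). Intensities were raised by 99.01 (lowest value 16), log2 transformed and quantile normalized. Probes with a mean above the median (12306) were kept, with the brightest probe per symbol, and tested with limma 3.58.1 in R 4.3.3 (group as the single term, Benjamini-Hochberg over 10377 genes), after a check on simulated data. The background limit per array was 1.645 times the root mean square of its negative intensities (35.4 to 39.8). A bound ("at least") sets the bright group against that limit's lowest passing values. Mean signals were 469 to 648 and the number of arrays limits precision.

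The members, lists and tests were chosen with earlier results of these data known. Named genes were the 3 highest and 3 lowest subunits of complexes I, III, IV and V, all tested genes of complex II, Cyc1, assembly factors, isoform pairs and genes whose probes disagree; other members named were chosen after their values were seen. Ndufa4 was placed in complex IV. Deviations of same-numbered arrays correlated weakly (r = -0.05, 0.05, 0.15 and 0.07), against -0.12 to 0.08 for other pairs of arrays. The main fit did not pair samples by number, and these few values cannot exclude a pairing. Alternatives were median centring, another offset, the value table, no filter, averaged probes, array weights, a replicate block and leaving out each array.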

Additional observations from a re-analysis of the deposited data

Results flagged for a closer look

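In 14 of 156 groups of 4 arrays, 1 array lay so far from the other 3 that its gap over the group's range exceeded Dixon's critical value (normalized log2 values); chance flags about 1 in 20 groups. In signal units, the arrays that stood below their group were Atp5g3 in Astrocyte 3 (30744, the others 33325 to 33832), Atp5j2 in NS5 3 (16606, the others 19713 to 19960.1), Atp5k in Astrocyte 1 (947, the others 1259 to 1330.1), Cox19 in NS5 1 (953, the others 1124 to 1154) and Cox20 in Astrocyte 1 (1087, the others 1531 to 1578). Further ones below were Cox7a2 in NS5 3 (1248, the others 1514 to 1567), Ndufaf1 in NS5 4 (1212, the others 1477 to 1499), Ndufaf3 in Astrocyte 1 (1653, the others 2235 to 2334), Uqcr11 in NS5 3 (3625, the others 5035 to 5137), Uqcrc2 in NS5 1 (3495, the others 3874 to 3953) and Uqcrh in Astrocyte 1 (17152, the others 20787 to 21016). Those that stood above were Atp5c1 in Astrocyte 2 (8158, the others 7645 to 7692), Atp5d in NS5 1 (4529, the others 4039 to 4095) and Cox4i2 in Astrocyte 3 (129.7, the others 83.8 to 89.7). Of the 11 low arrays, 4 were Astrocyte 1 and 3 were NS5 3. Among these genes, the call of Ndufaf3 was lost without Astrocyte 1, and Atp5d, Atp5k, Cox20 and Cox4i2 were not called with all arrays in the fit.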

How the results depend on the processing

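With median centring, 14 genes of the family were called higher in place of 25, 12 subunits in place of 22, and the subunit median was -0.064 in place of 0.084; 38.7% of subunit calls were higher in place of 62.9%, against 45.2% and 49.3% over all genes. Genes at least as bright as the lower quartile of the family, 2352 in all, had a median of -0.17 with centring and -0.04 without it; the cause was not tested. Atp5b (-0.22), Atp5g3 (-0.16) and Atp5j2 (-0.060) changed sign. The pair of Cox4i1 and Cox4i2 was at -0.24 with centring and -0.41 in the value table (adjusted p = 0.2 and 0.0857). Leaving out 1 array at a time, and NS5 3 with Astrocyte 1, gave assembly factor medians of -0.32 to -0.16. Subunit medians were then 0.02 to 0.13. In these fits 23 to 27 genes were higher and 15 to 20 lower, with 21 to 24 subunits higher and 10 to 14 lower. Cox8b minus Cox8a was 0.38 to 0.77 with 1 array left out at a time, and was not computed without NS5 3 and Astrocyte 1 together. With the replicate number as a block, 26 genes were higher and 18 lower, and the pairs kept their values (-0.56, -1.40 and 0.62) at an exact sign permutation p of 0.125, the smallest possible with 4 numbers. Over 16 alternatives and 78 genes, 652 of 1248 values stayed called in the same direction, 65 lost the call, 21 gained it, 3 lost it with a change of sign, and 507 were called in neither case, 31 of them with the opposite sign. The Cox7a pair was at -3.08 and the Cox8 pair at 1.09 in the value table. Without the filter the Cox6a and Cox6b pairs could also be computed, with Cox6a2 and Cox6b2 near background. By the exact permutation test, Cox6a2 minus Cox6a1 gave -1.15 (adjusted p = 0.0357 over 5 pairs). Cox6b2 minus Cox6b1 gave -0.22 (adjusted p = 0.0857). Dim probes near background, such as that of Cox7a1 in NS5 cells, limit what a fold change can state.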
